A study of Carica papaya with 55 samples.

Results

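Ovules dissected from mature female papaya flower buds were compared with pistils of buds of the same size, with 3 libraries of each, 6 of the 55 libraries in the series. The libraries were chosen by their labels, all 193 features of the count tables were used, and every difference is ovule minus pistil. The series holds flower tissue of female and of male papaya (Carica papaya) plants. It follows the promoter and the alleles of CpMDAR4, a monodehydroascorbate reductase gene, in flowers. The tables hold sex-linked features alone: 97 are X-located, and 96 are located on the Y, in the region that males alone carry, and have names that end in MSY. CpMDAR4 was not analysed here, because no feature carries that name.

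Both groups came from females of the variety AU9, from buds of 15 to 20 mm (stage S5, mature flower), with total RNA as the material and no treatment. The labels call the first group ovules and the second pistils. They say neither how many flowers or plants went into a library, nor whether the replicates came from separate plants, nor whether the pistils still held their ovules. P-values therefore rest on the spread between replicate libraries, which may be technical. In the main fit that spread was estimated over all 55 libraries of the series, in 19 groups, and not from ovules and pistils alone. The identity of the tissues was not checked against marker genes: of the 193 features, 0 could be matched by name among the 48816 papaya genes of the reference table, so no feature is given a gene name or a role here.

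The pistil is the female organ of the flower, made of stigma, style and ovary. Ovules lie inside the ovary and are built of maternal tissue (nucellus and integuments) around the embryo sac, the female gametophyte, and they become the seeds after fertilisation. Papaya females carry a pair of X chromosomes and no Y. Where female libraries had counts at Y-labelled features, the source of the reads was not tested.

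The counts assigned to sex-linked features were 75053, 80431 and 73056 in ovule libraries 1, 2 and 3, and 55611, 92119 and 71039 in pistil libraries 1, 2 and 3. These totals lie within the range of the 55 libraries, 21475 to 106846 counts, and are not the sequencing depth. Y-labelled features took 26.6 ± 0.514% of the counts in ovules and 26.9 ± 0.156% in pistils (SD, n = 3 each), with overlapping ranges of 26.1 to 27.1% in ovules and 26.7 to 27.1% in pistils. CpY19_MSY, which had at least 148 counts in every male library, had 0 counts in each ovule library and at most 1 in a pistil library. No pair of libraries held identical counts, and replicates differed by more than sampling noise. Pistil library 2 stood apart for the most features: CpX15, CpXY25_X and CpXY25_MSY were more than 2-fold above both other pistil libraries there, and CpXY48_X more than 2-fold below them. Ovule library 3 was more than 2-fold below the other ovule libraries for CpXY13_X.

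Most well-counted features differed little between ovules and pistils, and few of them differed by more than 2-fold. Of 139 features tested, 12 passed an adjusted p of 0.05 (8.63% of those tested), 7 of them higher in ovules (5.04%) and 5 lower (3.6%). The test was edgeR's quasi-likelihood test with Benjamini-Hochberg adjustment, and 31 features had an unadjusted p under 0.05. Among the 67 X-located features, 4 were higher in ovules, 4 were lower and 59 did not pass, with a median log2 difference of 0.01. Among the 72 Y-located features, 3 were higher, 1 was lower and 68 did not pass, with a median of 0, which was also the median of all 139. These medians and totals include 14 tested features without counts in any of the 6 libraries. Their difference was 0 by construction and they could not pass. All of them except CpXY4_X are Y-located. The split of calls varied with scaling. It was 7 higher and 5 lower with the trimmed mean of M-values (TMM), and 7 and 6 with TMM on X-located features. Table totals gave 6 higher and 6 lower, and size factors by the median of ratios 4 higher and 8 lower. DESeq2, which differs in its test as well as its scaling, gave 3 higher and 7 lower (10 calls, 7.19%). The 3 ovule libraries lay wholly above the pistil libraries for 20 features (14.4% of those tested) and wholly below them for 22 (15.8%), 42 features in all (30.2%). Of the 74 features with a mean of at least 100 counts in both groups, 61 differed by less than 0.5 on the log2 scale, and 3 by more than 2-fold. The RNA is bulk, so a different share of a cell type and a different amount of RNA per cell cannot be told apart in any of these values.

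**Figure D1:**
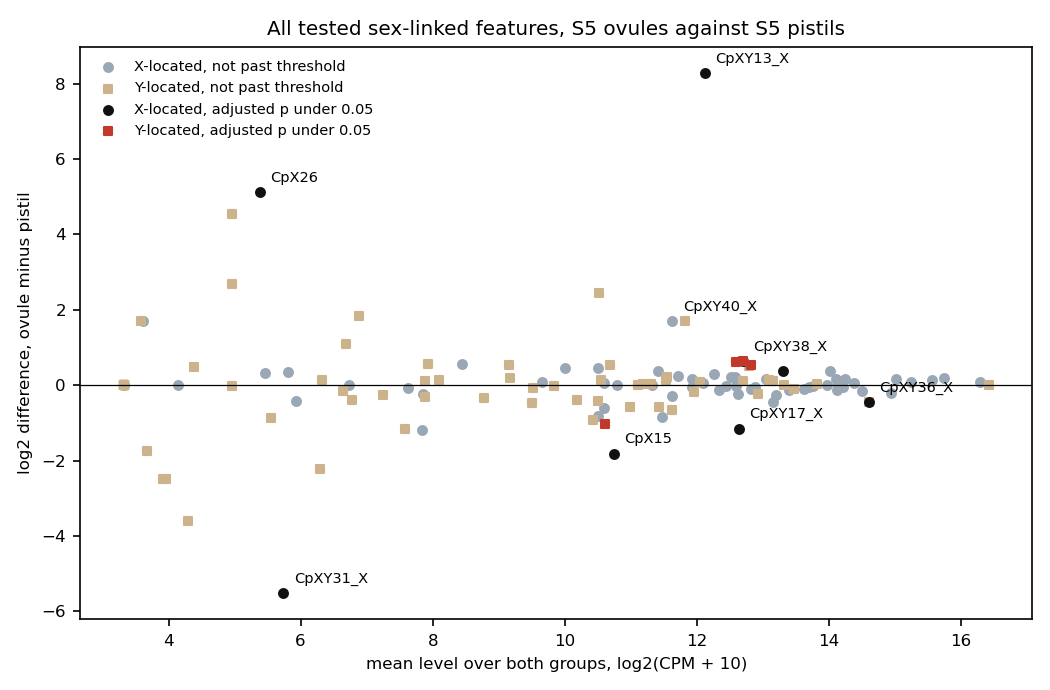
Log2 difference between S5 ovules and S5 pistils (vertical axis) against the mean level over both groups as log2(CPM + 10) (horizontal axis), 1 point for each of the 139 tested features. Most well-counted features lie near 0, CpXY13_X stands alone at 8.28, and of the 12 features past the threshold 8 are X-located (black) and 4 Y-located (red).

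CpXY13_X, an X copy with 3 exons at X:3895165-3898270, showed the widest gap of the features tested. It had 1031, 926 and 130 counts in the ovule libraries, against 6, 0 and 0 counts in the pistil libraries. On the CPM scale, counts in 1e+06 of the library's TMM-scaled total, that is 13570, 11360 and 1658 in ovules and 99.7, 0 and 0 in pistils. All 3 ovule libraries were above every pistil library, although the lowest ovule library was far below the other two. The log2 difference was 8.28 (SE 0.89, edgeR adjusted p = 3.3e-07). Summed counts of each group, over that group's summed TMM-scaled totals, gave a ratio of 342. Its 95% exact counting interval of 157 to 932 covers counting error only. Single libraries moved the log2 difference: with 1 library left out it ran from 7.54 (without pistil library 2) to 12.24 (without pistil library 1, which held all 6 pistil counts, so that the fitted value is then no bound), and it passed in all 6 of these fits. DESeq2 gave a difference of 7.95 that did not pass (adjusted p = 0.0712). The edgeR fit used a spread shared by the 19 groups, with a coefficient of biological variation of 0.76 for CpXY13_X. In the 6 libraries alone that coefficient was 1.32, and CpXY13_X passed there too (8.29).

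The earlier pistils did not hold this transcript at a like level: all 12 libraries of S1 to S4 pistils were below the lowest ovule library, with 14.8 CPM as the highest. The level was higher in stamens, at 23779 ± 8378 CPM after meiosis (S4) and 43086 ± 2279 CPM in mature flowers (SD, n = 3 each), so that only these 2 of 19 groups had a higher mean than ovules. Pollen had 0 counts of CpXY13_X. Its Y copy, CpXY13_MSY, took 0.477% of the counts of the pair in ovules (95% Wilson interval 0.259 to 0.876%). In stamens it took 29.3% at S4 (28.2 to 30.4%) and 41.4% at S5 (40.7 to 42.2%). These intervals pool the counts of 3 libraries and cover counting error only, not the spread between libraries. CpXY13_MSY itself had 4, 5 and 1 counts in the ovule libraries and 0 in each pistil library, and did not pass (log2 difference 4.55, edgeR adjusted p = 0.12).

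CpX26, a single-exon X feature without a Y copy at X:3857191-3857577, lies 37.6 kb from CpXY13_X with no other feature of the tables between them. It had 3, 6 and 6 counts in the ovule libraries and 0 in each pistil library. Against a floor of 3 counts over the pistil group it was at least 4.91-fold higher in ovules (edgeR adjusted p = 0.027). This call rests on 15 counts, and it was lost in 5 of the 6 fits that left out 1 library (adjusted p from 0.055 to 0.17, in each of them except that without ovule library 1). DESeq2 gave a difference of 4.62 that did not pass (adjusted p = 0.071). Ovules averaged 63.2 ± 20.6 CPM, against 517 ± 142 CPM in S5 stamens and 712 ± 263 CPM in pollen (SD, n = 3 each).

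**Figure D2:**
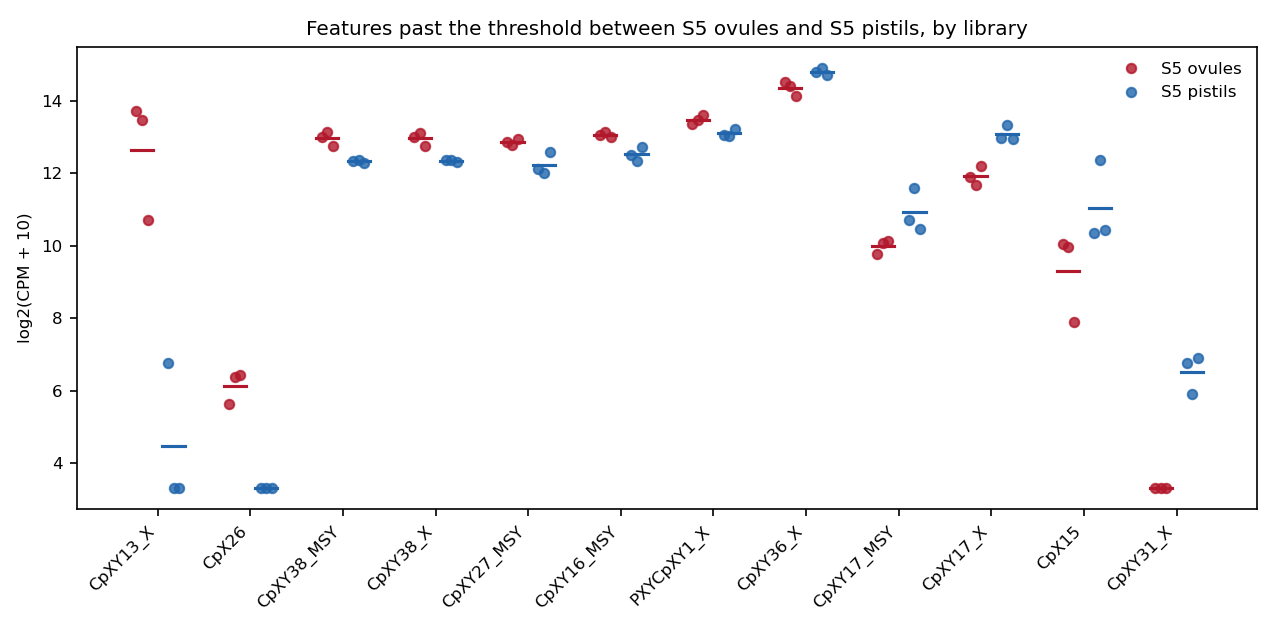
Level of each of the 12 features past the threshold, as log2(CPM + 10), in the 3 ovule libraries (red) and the 3 pistil libraries (blue), with a bar at each group's mean of the plotted values. The groups are apart in all 12, and the widest spreads within a group are those of CpXY13_X and CpX15.

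CpXY38 was higher in ovules at both of its copies, and these were the only higher calls that passed in each alternative in which they were tested. CpXY38_X (2 exons, X:5002961-5004061) had 8279, 8944 and 6977 CPM in ovule libraries and 5283, 5301 and 5058 CPM in pistil libraries. CpXY38_MSY (Y:7692308-7693408) had 8252, 8956 and 6964 CPM in ovules and 5217, 5251 and 5003 CPM in pistils. The pistil libraries lay close together and the ovule libraries wholly above them. The log2 difference was 0.63 for the X copy and 0.64 for the Y copy (SE 0.14 and edgeR adjusted p = 0.0015 for each). The copies are not independent measurements: reads that map to several places were counted at each, and the copies had 629 and 627 counts in ovule library 1. All 12 libraries of S1 to S4 pistils were below the lowest ovule library, with group means of CpXY38_X from 4936 to 5503 CPM. S4 stamens averaged 9864 ± 743 CPM and S5 stamens 11087 ± 1028 CPM, whereas pollen averaged 14.3 ± 24.7 CPM (SD, n = 3 each).

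PXYCpXY1_X, an X copy whose Y copy had 0 counts in both groups, was higher in ovules by a smaller factor. It had 10464, 11311 and 12614 CPM in ovule libraries, against 8523, 8331 and 9633 CPM in pistil libraries, a log2 difference of 0.38 (SE 0.11, edgeR adjusted p = 0.026). Ovules had the highest mean of the 19 groups, and all 12 libraries of S1 to S4 pistils were below the lowest ovule library. The call was lost without ovule library 3 (0.30, adjusted p = 0.18) and without pistil library 2 (0.34, adjusted p = 0.17), and under DESeq2, table totals and the median of ratios (adjusted p from 0.071 to 0.094). The feature spans X:3455797-3493735, and PYCpXY23_X lies inside this span on the other strand, so without a strand setting their reads could not be told apart where exons overlap.

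CpXY16 and CpXY27 passed at their Y-labelled copies and not at their X copies in the fit to all groups. CpXY16_MSY (148 exon bases, Y:4772617-4772764) had 8476, 8980 and 8150 CPM in ovules and 5782, 5150 and 6836 CPM in pistils (log2 difference 0.53, SE 0.16, edgeR adjusted p = 0.026). CpXY16_X had 18137, 19224 and 18443 CPM in ovules and 13308, 13511 and 16125 CPM in pistils, and did not pass (0.38, SE 0.18, adjusted p = 0.20), but passed in the 6 libraries alone (0.38, adjusted p = 0.017) and there with the replicate block (0.38, adjusted p = 0.019). The ovule libraries were wholly above the pistil libraries for both copies, and ovules had the highest mean of 19 groups for CpXY16_X. CpXY27_MSY (19 exons, Y:5124619-5135370) had 7463, 7054 and 7831 CPM in ovules and 4419, 4110 and 6160 CPM in pistils (0.61, SE 0.19, edgeR adjusted p = 0.033). CpXY27_X had 15373, 15679 and 16964 CPM in ovules and 15401, 16621 and 15642 CPM in pistils, with overlapping libraries and a log2 difference of 0.01. The CpXY16_MSY call was lost without ovule library 3 (adjusted p = 0.057) and without pistil library 2 (0.18), and the CpXY27_MSY call in 4 of 6 such fits, those without ovule library 1 or 3 or pistil library 1 or 2 (0.062 to 0.20). With size factors by the median of ratios neither passed (adjusted p = 0.051 for CpXY16_MSY and 0.088 for CpXY27_MSY), and CpXY27_MSY was also lost with DESeq2 (0.071) and in the 18 female organ libraries alone (0.097). With the counts of both copies summed, CpXY16 differed by 0.44 (adjusted p = 0.064) and CpXY27 by 0.19 (adjusted p = 0.38).

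CpXY17 was lower in ovules at both copies. CpXY17_X (7 exons, X:4115164-4119607) had 3830, 3276 and 4694 CPM in ovule libraries, against 8025, 10330 and 7883 CPM in pistil libraries. The highest ovule library was below the lowest pistil library by a wide margin, and the log2 difference was -1.15 (SE 0.18, edgeR adjusted p = 6.7e-06), which passed under each alternative it was tested in. CpXY17_MSY (Y:4563067-4567501) had 869, 1080 and 1110 CPM in ovules and 1678, 3120 and 1420 CPM in pistils (-1.03, SE 0.21, adjusted p = 0.0010). The call of the Y copy was lost without pistil library 2, its highest (-0.60, adjusted p = 0.13), and in the 6 libraries alone (-1.03, adjusted p = 0.052). CpXY17_X was above the highest ovule library in all 12 libraries of S1 to S4 pistils. CpXY17_X averaged 3933 ± 715 CPM in ovules, against 12057 ± 1917, 13392 ± 2144, 13081 ± 741, 8869 ± 930 and 8746 ± 1374 CPM in S1, S2, S3, S4 and S5 pistils (SD, n = 3 each).

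CpXY31_X (1 exon, X:4739152-4739769) was not detected in ovules, with 0 counts in each library, and had 6, 5 and 8 counts in the pistil libraries. Against a floor of 3 counts over the ovule group it was at least 6.45-fold lower in ovules (edgeR adjusted p = 0.022), and the call was lost without ovule library 2 or ovule library 3 (adjusted p = 0.060 and 0.074). Mature pistils themselves were low for this feature: the means were 715 ± 207, 358 ± 186, 207 ± 88.7, 95.7 ± 39.5 and 86.8 ± 31.9 CPM in S1, S2, S3, S4 and S5 pistils (SD, n = 3 each). Its Y copy had 0 counts in both groups.

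CpX15 (1 exon, X:2371023-2371797), an X feature without a Y copy, had 1053, 994 and 230 CPM in ovule libraries, against 1296, 5301 and 1378 CPM in pistil libraries. The groups did not overlap, but 1 library of each lay far from the other two. The log2 difference of -1.81 (SE 0.51, edgeR adjusted p = 0.022) became -0.82 without pistil library 2 (adjusted p = 0.47) and -1.38 without ovule library 3 (adjusted p = 0.17), and did not pass in the 6 libraries alone (adjusted p = 0.28).

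CpXY36_X (6 exons, X:4948529-4951174) had 23401, 21813 and 17933 CPM in ovules and 28560, 30748 and 26806 CPM in pistils, a log2 difference of -0.45 (SE 0.14, edgeR adjusted p = 0.033). Its Y copy had nearly the same counts and a difference of -0.44 that did not pass (adjusted p = 0.064), but passed in 9 of 19 alternatives, among them the 3 other scalings, DESeq2 and the 6 libraries alone (lowest adjusted p = 0.0051). The CpXY36_X call was lost without ovule library 2 or 3 or pistil library 1 or 2 (adjusted p from 0.11 to 0.26), and with no count filter (-0.32, adjusted p = 0.15). S4 stamens had 156607 ± 16993 CPM of CpXY36_X and S5 stamens 272675 ± 36700 CPM (SD, n = 3 each), many times the level of either female group. CpXY36_X was thus lower in ovules than in pistils, whereas CpXY13_X, CpX26 and CpXY38_X, which also had more CPM in S5 stamens than in S5 pistils, were higher in ovules.

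**Figure D3:**
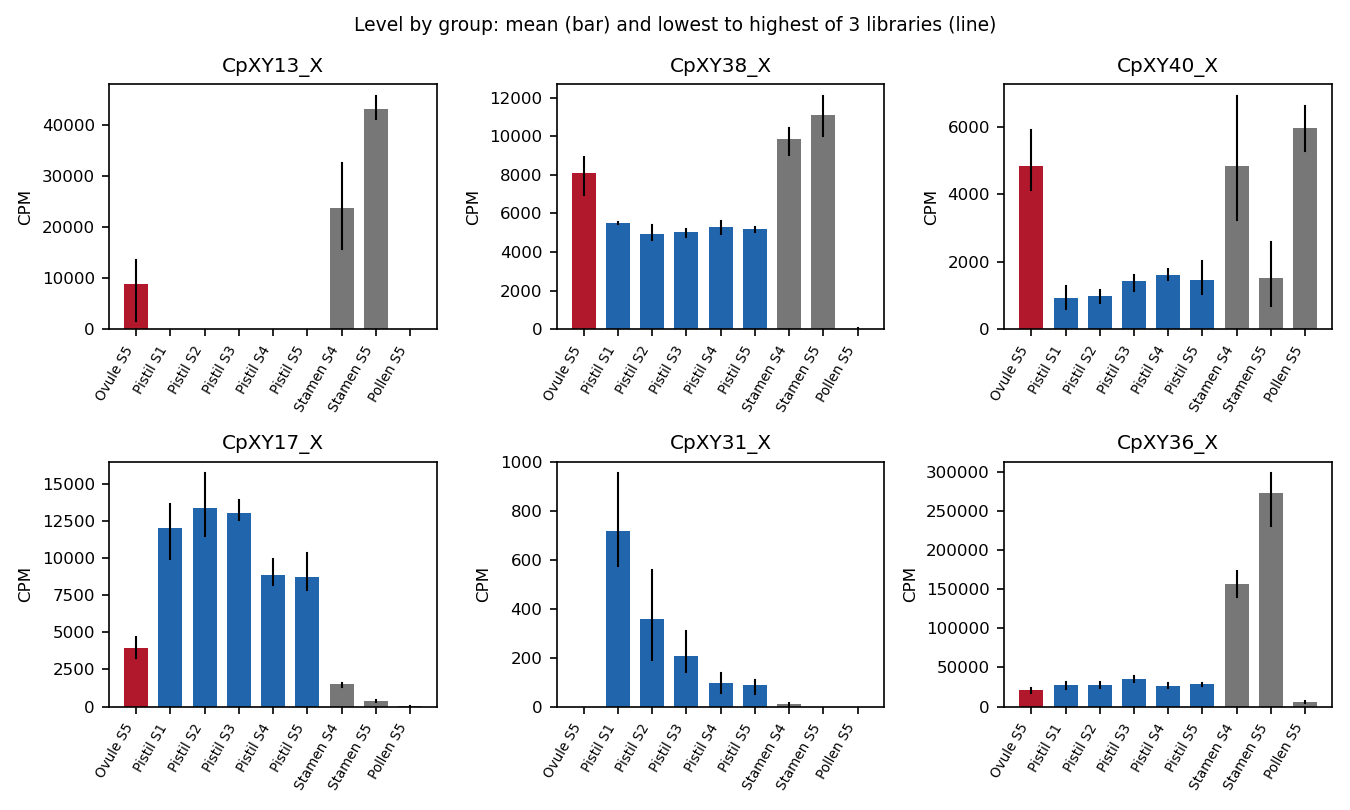
Level in CPM (vertical axis, from 0) of 6 X copies in S5 ovules (red), S1 to S5 pistils (blue), and S4 and S5 stamens and pollen (grey), with bars at the mean and lines from the lowest to the highest of 3 libraries. CpXY13_X, CpXY38_X and CpXY40_X are higher in ovules than in pistils of any stage, and CpXY17_X and CpXY31_X are lower than in pistils of any stage.

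CpXY40 had a large difference that did not pass. CpXY40_X (2 exons, X:5084491-5086415) had 4133, 4466 and 5918 CPM in ovules and 1346, 2020 and 1061 CPM in pistils, a log2 difference of 1.71 (SE 0.66, edgeR adjusted p = 0.12). CpXY40_MSY had 4686, 5226 and 6696 CPM in ovules and 1545, 2292 and 1227 CPM in pistils (1.71, SE 0.63, adjusted p = 0.089). For both copies the ovule libraries were wholly above the S5 pistil libraries, and CpXY40_X in all 12 libraries of S1 to S4 pistils was below the lowest ovule library. The spread shared by the 19 groups was wide for this feature, with a coefficient of biological variation of 0.56 for CpXY40_X, against 0.27 in the 6 libraries alone. S4 pistillodes (the aborted pistils of male flowers) ranged from 54.7 to 7895 CPM. In a fit of the 6 libraries alone, in which 16 of 101 features were called (15.8%), both copies passed (adjusted p = 0.0028 for CpXY40_X), as they did there with the replicate block and in the 18 female organ libraries. CpXY36, CpXY38 and CpXY40 are near one another on the X: 51.8 kb separate CpXY36_X from CpXY38_X, and 80.4 kb separate CpXY38_X from CpXY40_X.

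Of the other features without overlap, with at least 100 counts on average in the higher group and a difference of at least 0.5, none passed. CpX1, an X feature without a Y copy, had 1264, 957 and 906 CPM in ovules and 1744, 2171 and 1585 CPM in pistils (log2 difference -0.82, edgeR adjusted p = 0.12, 0.044 in the 6 libraries alone, 0.047 there with the replicate block, and 0.023 in the 18 female organ libraries). All 12 libraries of S1 to S4 pistils were above its highest ovule library. PXYCpXY3_MSY differed by -0.57 and CpXY33_X_v2 by -0.60, with lower ovule libraries, and CpXY50_MSY by 0.50 and CpXY15_MSY by 0.53, with higher ones (edgeR adjusted p from 0.20 to 0.26). CpXY50_MSY passed in the 6 libraries alone (adjusted p = 0.017, and 0.019 with the replicate block), and CpXY33_X_v2 in the 18 female organ libraries (-0.64, adjusted p = 0.045).

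The 68 pairs of an X and a Y copy were classed by the share of counts that the Y copy took in the 15 female libraries outside this comparison: separate (under 5%, 18 pairs), partly shared (11), shared (over 25%, 25) and not classed (under 100 counts, 14). Over all 139 tested features 12 were called (8.63%), and no class was tested against that share. The X copies of separate pairs held 1 higher call and 1 lower call among 18 tested. None of their 18 Y copies passed with edgeR or DESeq2, and 2 had an unadjusted p under 0.05 in edgeR. Some of these Y copies, such as CpXY5_MSY, had no counts in either group and could not pass. The X copies of shared pairs held 1 higher and 1 lower call among 25, and their Y copies 3 higher calls among 25, with median log2 differences of 0.06 and 0.08. Partly shared pairs held 1 lower X copy of 11 and 1 lower Y copy of 10, both CpXY17. The X features without a Y copy held CpX26 and CpX15 among 5 tested. Of the 13 tested Y features without an X copy none passed, with 4 at an unadjusted p under 0.05 in edgeR, and none was among the DESeq2 calls. Some of them, such as CpY8_MSY, likewise had no counts in either group.

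The Y copy's share of a pair's counts was close in ovules and pistils for most of the 48 pairs that had at least 20 counts in every library. The median difference was 0.0372 percentage points, with 38 pairs within 2 points and a range from -4.85 to 8.54 points. All the separate pairs among these lay within 2 points. Their observed Y share over summed counts was at most 1.97% in either group (CpXY14 in ovules), which left no room for a wider difference. Reads that map to both copies were counted at each, and so added equally to the 2 copies. How many reads did so, and how far they moved these shares, was not tested. The libraries of the groups did not overlap for 6 of the 48 pairs (12.5%), which were CpXY27, CpXY16, CpXY15, CpXY3, CpXY38 and PXCpXY6. The widest gap was that of CpXY27: the Y copy took 32.7, 31.0 and 31.6% in ovule libraries and 22.3, 19.8 and 28.3% in pistil libraries. Over summed counts the share for CpXY16 was 31.5% in ovules and 29.0% in pistils. These shares are descriptions of where reads were assigned, with no test.

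**Figure D4:**
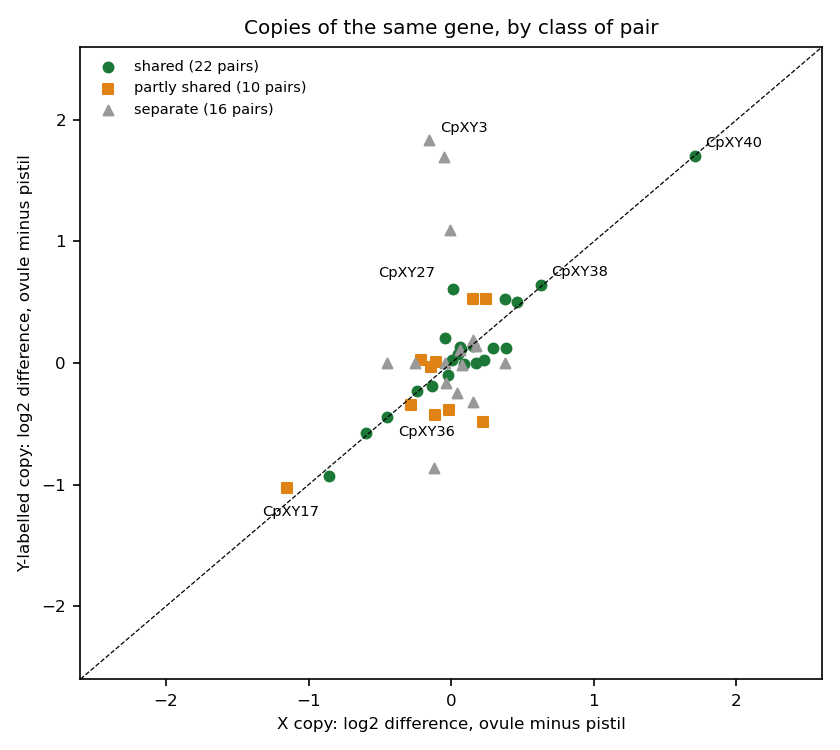
Log2 difference between ovules and pistils of the Y-labelled copy (vertical axis) against that of the X copy (horizontal axis) for 47 pairs with at least 20 counts in every library, by class of pair, with the line of equal difference dashed. PXCpXY14, at 2.68 for its Y copy, lies outside the axes. Shared pairs such as CpXY38 and CpXY40 lie near the line and CpXY27 lies above it, near 0 for its X copy.

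The features with the most counts differed little. The 10 features with the highest mean CPM in ovules took 46.2% of the counts in ovules and 46.5% in pistils, and 9 of them were also among the top 10 of pistils. They were both copies of CpXY47 and the X copies of CpXY8, CpXY9, CpXY11, CpXY12, CpXY2, CpXY3, CpXY20 and CpXY36. Apart from CpXY36_X their log2 differences were between -0.21 and 0.18, with edgeR adjusted p from 0.45 to 1. Per kilobase of exon, CpXY12_X was the highest of them, with 63197 CPM in ovules and 56904 in pistils, and CpXY20_X the lowest, with 3282 CPM in ovules and 3129 in pistils. Of the well-counted features, CpXY49_MSY was among the 5 with the smallest differences: 10306, 10195 and 10229 CPM in ovules and 10218, 10168 and 10267 CPM in pistils. The other 4 were CpXY47_MSY, CpXY27_X, CpXY1_X and CpXY37_MSY, with differences from -0.01 to 0.03.

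At the low end, 54 of the 193 features had no counts in any of the 6 libraries, and 113 had counts in all 6. Of the features without counts, 14 were among the 139 tested. Counts were present in ovules alone for 7 features, of which the highest had 15 counts over the group, and in pistils alone for 7, of which the highest had 19. Of the 27 Y features without an X copy, 22 had no counts in ovules and 19 none in pistils. At these depths a feature with no counts could not be told from one at a low level.

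The calls differed in how far they rested on the processing and on single libraries. CpXY17_X, CpXY38_X and CpXY38_MSY passed under each of the alternatives in which they were tested, and the other 9 were lost in at least 1. Leaving out ovule library 3 or pistil library 2 reduced the count of calls from 12 to 5 in each case, and leaving out ovule library 1 gave 14.

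**Figure D5:**
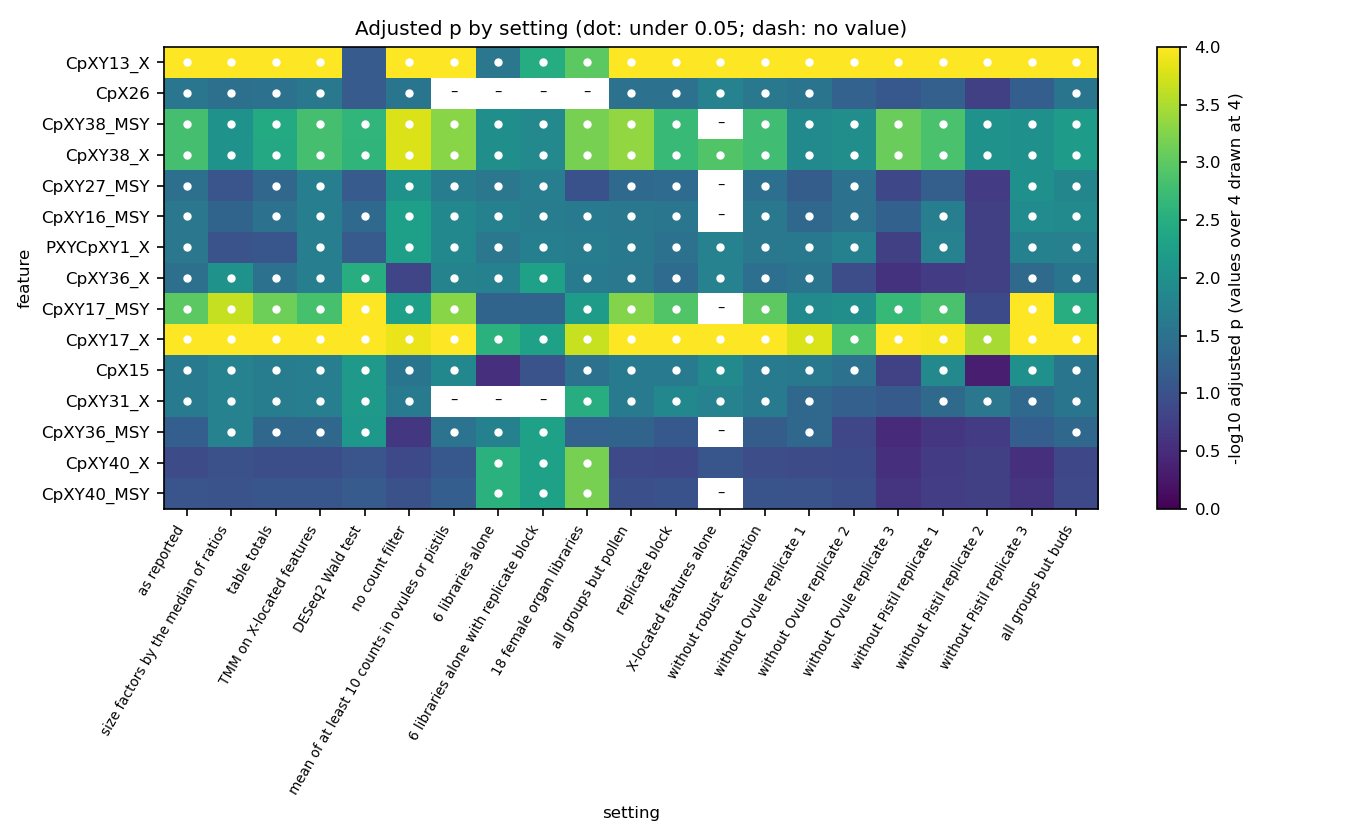
Adjusted p as -log10 (colour, values over 4 drawn at 4) of 15 features (down) under the settings tried (across), with a dot where it was under 0.05 and a dash where the feature was not tested. The columns without ovule library 3 and without pistil library 2 hold the fewest dots, and CpXY40_X and CpXY40_MSY have dots only in fits of female organ libraries alone.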

How the data were processed

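Total RNA was sequenced from 55 libraries in 19 groups. The deposited values are counts. The authors counted fragments on exons with featureCounts 2.0.0 in paired mode and added them up for each gene name, per the file headers. Reads that map to several places were counted at each of them, in full, and no strand setting is given, per the file headers. The submitters' processing notes give the aligner HISAT2 2.0.5 after FastQC 0.11.5 and Trimmomatic 0.36, with SAMtools 1.3.1, and featureCounts as version 1.5.2, unlike the headers. Coordinates are those of the files, and for their genome build the sources used here name none. The tables cover sex-linked features only, so scaling rests on these features.

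The filter filterByExpr kept 139 features and left out 54, and TMM scaling was then computed on the features kept. In R 4.3.3, edgeR 4.0.16 fitted 1 robust quasi-likelihood model of 19 group coefficients to all 55 libraries (prior count 0.125). P-values are two-sided, with Benjamini-Hochberg adjustment over all tested features and a threshold of 0.05. An exact permutation test of 3 libraries against 3 cannot go below 0.1 and was not used. A fold against a group without counts was computed against 3 counts over that group and is a lower bound. Named features were those past the threshold and their other copies, the 10 with the highest ovule CPM, those without overlap with a mean of at least 100 counts in the higher group and a difference of at least 0.5, and the 5 with the smallest differences among those with at least 500 counts in both groups. Libraries that stood apart and the features they concern were named after their values were seen. The groups, lists and naming rule were chosen with earlier results of these data known.

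Alternatives were other scalings, DESeq2 1.42.0, other count filters, fits on fewer groups, replicate number as a block, X features alone, summed copies, no robust estimation and each library left out. A fit without the bud libraries, whose headers name another folder, was added after seeing the data. The fit was tested on simulated data. Python 3.11.15 with pandas 2.3.3, SciPy 1.17.1 and matplotlib 3.10.9 served for tables and plots.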

Additional observations from a re-analysis of the deposited data

Results flagged for a closer look

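Features left out by the count filter were looked at for counts in ovules above those in pistils. PYCpXY23_X had 22 counts in ovules and 12 in pistils, each summed over 3 libraries. It lies on the other strand inside the span of PXYCpXY1_X. PXCpXY21_X had 8 counts in ovules and 5 in pistils. Neither was tested.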

How the results depend on the processing

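Of 21 alternatives, 20 were planned, and none turned the direction of any of the 12 called features. Calls numbered 12 as reported, 10 to 13 under the other scalings and DESeq2, 11 under both other count filters, 12 without pollen or robust estimation and 13 without buds. The X-located features alone gave 9 calls and summed copies 8. The 6 libraries alone gave 16 calls, of which 8 were also called in the fit to all groups, and the 18 female organ libraries gave 17 (16% of 106 tested), of which 10 were; the cause was not tested. Leaving out 1 library gave from 5 to 14 calls, with 5 without ovule library 3 or without pistil library 2. For the higher calls this range was 3 to 7 and for the lower 2 to 7. With no count filter the median of the well-counted features moved by 0.13 on the log2 scale, and the difference of CpXY36_X, which was -0.45, no longer passed. With replicate number as a block the fit gave 12 calls, the same 12 features. The labels do not say whether the numbers pair the libraries. Deviations of same-numbered libraries correlated at -0.0029, -0.39 and 0.07 over 74 features, and those of differently numbered libraries at -0.36 to 0.52. With 3 libraries in each group and no test, these correlations cannot settle it. Low counts limit CpX26 and CpXY31_X, with under 20 counts in all.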

Other observations

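Some features differed within a group more than between groups, and are given here after their values were seen. PCpY4_MSY, a Y feature without an X copy, had 6357 CPM in ovule library 1 but 589 and 434 CPM in the other ovule libraries, against 332, 434 and 579 CPM in the pistil libraries. CpXY25_X had 2040, 1975 and 2041 CPM in the ovule libraries, against 1678, 7048 and 2191 CPM in the pistil libraries, and CpXY25_MSY was high in the same pistil library. Both copies of CpXY25 passed as lower in ovules in the fit without pistil library 1 alone, in which pistil library 2 was 1 of 2 pistil libraries. Unlike these, CpXY5_X did not overlap between the groups, and it too is given after its values were seen. It had 8766, 8342 and 5880 CPM in the ovule libraries and 9985, 10380 and 11067 CPM in the pistil libraries. Its log2 difference of -0.45 had an edgeR adjusted p of 0.089 and passed in 5 alternatives: DESeq2, size factors by the median of ratios, the 18 female organ libraries, the X-located features alone and the fit without ovule library 1.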
